A study of Gallus gallus with 18 samples.

Results

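The SLC25 family comprises the carrier proteins that move metabolites across the inner mitochondrial membrane. Its members were taken here as the genes whose deposited name begins with SLC25A, plus UCP3, leaving out SLC25A1, SLC25A20 and SLC25A32, which gave 36 of the 23741 genes in the table. Each carrier has its own substrates: some exchange ADP for ATP or import phosphate, others move amino acids, dicarboxylates of the malate-aspartate shuttle, nucleotides, cofactors, iron or glutathione, and the uncoupling proteins can let protons back across the membrane. In liver the family links mitochondria to gluconeogenesis, haem synthesis and fatty acid metabolism. In spermatozoa, mitochondria sit in the midpiece and supply part of the energy for movement. By the roles listed for human and mouse, 9 members carry adenine nucleotides, phosphate or coenzyme A or are grouped with those carriers, 7 go with amino acids, 10 with cofactors, nucleotides, metals and glutathione, 5 with dicarboxylates, 3 with the uncoupling proteins, and 2 (SLC25A34 and SLC25A46) have no known substrate or sit in the outer membrane. The roles of the chicken proteins are taken over from those species. The grouping was written by hand, and SLC25A48 is counted with amino acids although it is linked to choline import in human and mouse cells.

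The study fed Arbor Acres breeder roosters a corn and soybean diet with 0.25 mg folic acid per kg of feed (FCON) or with 5 mg per kg (FE) and sequenced polyA RNA in 18 libraries, 3 in each of 6 groups. The groups are liver of the breeder roosters at 35 weeks on FCON or FE, liver of 1-day-old offspring grouped by the diet of the father, and sperm of the breeder roosters. The hens mated with them were fed folic acid at a level the labels do not give. Each offspring library is a pool of RNA from 4 chicks of one replication, and sperm library FE 3 carries a label of 36 weeks in place of 35. All groups share the Arbor Acres stock, and the labels name no transgene or allele. The source labels call the folic acid of the diets extra, so whether 0.25 and 5 mg are total or added amounts is not settled by them. By their labels replicates are different birds or pools, and p-values measure the spread between 3 libraries a group.

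Library totals ran from 16979085 to 43130067 counts. W-linked genes, absent from the male genome, took 1015 to 1117 CPM (counts scaled to a library total of 1e+06) in the 3 libraries labelled rooster FCON and at most 2.07 in those labelled rooster FE. They took 963 and 1299 CPM in the offspring pools numbered 2 and at most 9.34 in the other pools. Nuclear rRNA took 6.43 ± 3.02% (SD, n = 3) of the rooster FCON counts and 45.9 ± 13.9% of the rooster FE counts, and genes of the mitochondrial genome 0.811 ± 0.128% and 7.04 ± 1.08%. The summed level of 8 hepatocyte markers ranged from 27225 to 27522 scaled FPKM in rooster FCON, from 9552 to 13703 in rooster FE, and from 262 to 693 in sperm, where 7 sperm and spermatid markers summed to between 29.4 and 237 against at most 6.00 in liver. In sperm most of the hepatocyte sum was TF (on average 367 in FCON and 365 in FE), while ALB averaged 14.6 and 5.35. Summed over 4 listed markers of genital tract epithelium (EPCAM, KRT8, KRT18 and CLDN4), sperm held 82.6 to 179 in FCON and 54.9 to 162 in FE. Rooster liver held 328 to 520, so the list does not single out genital tract cells and liver is no reference for their absence. Summed lymphocyte markers lay at 25.1 to 79.2 in sperm FCON and 7.76 to 90.0 in sperm FE. In rooster liver they lay at 31.7 to 35.9 with FCON and 129 to 133 with FE. The part of other cells in the sperm values was not tested. Diet, the W difference, RNA make-up and cell make-up cannot be told apart between the rooster liver groups, which are called by their labels below. Pairs of rooster FCON libraries lay closest to each other (median squared difference of 3.20 to 3.36 times its counting variance over genes with a mean of at least 100 counts, against 6.37 to 53.0 within the other groups), more than counting noise alone gives. Whether this narrow spread is one between single birds was not tested, and standard errors of contrasts with rooster FCON depend on it.

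Levels are given as scaled FPKM, to set genes and libraries side by side. This is the deposited fragments per kilobase of transcript and per 1e+06 fragments, divided by a scaling factor for each library. The factor takes most genes to be alike between libraries. Levels set side by side between tissues depend on that, and it was not tested. In scaled FPKM 26 of the 36 carriers reached 1 in at least 3 of the 6 libraries of every tissue. In rooster liver 32 did so, in offspring liver 30 and in sperm 31. UCP3, the uncoupling protein of birds, and SLC25A40, grouped with the glutathione carriers, did so in none. SLC25A24, an ATP-Mg/phosphate carrier, did so in sperm only, where it measured 0.534, 3.54 and 6.13 in FCON and 2.05, 1.58 and 5.25 in FE. UCP3 read 0.498, 0.628 and 0.749 in the 3 offspring FE pools and 0, 0.0945 and 0 in the FCON pools, groups without overlap at levels below the minimum for testing.

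The ADP/ATP carriers SLC25A6 and SLC25A5 had the highest means over the 6 libraries of each tissue. SLC25A6 (gene 374072, chromosome 1, 130453455 to 130456984) averaged 376 scaled FPKM in rooster liver, 635 in offspring liver and 175 in sperm. SLC25A5 followed with 119.7, 171 and 72.6. The phosphate carrier SLC25A3 was the next most abundant in both livers (82.4 and 159) and lay below the oxoglutarate-malate carrier SLC25A11 in sperm (50.4 against 65.8). In sperm FCON alone SLC25A11 averaged 64.8 and SLC25A5 62.9, with libraries that overlap. All members together summed to 1108 ± 7.23 scaled FPKM in rooster FCON and 632 ± 6.43 in rooster FE, 1620 ± 247 and 1203 ± 330 in offspring FCON and FE, and 577 ± 81.5 and 594 ± 42.6 in sperm FCON and FE (SD, n = 3).

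**Figure D1:**
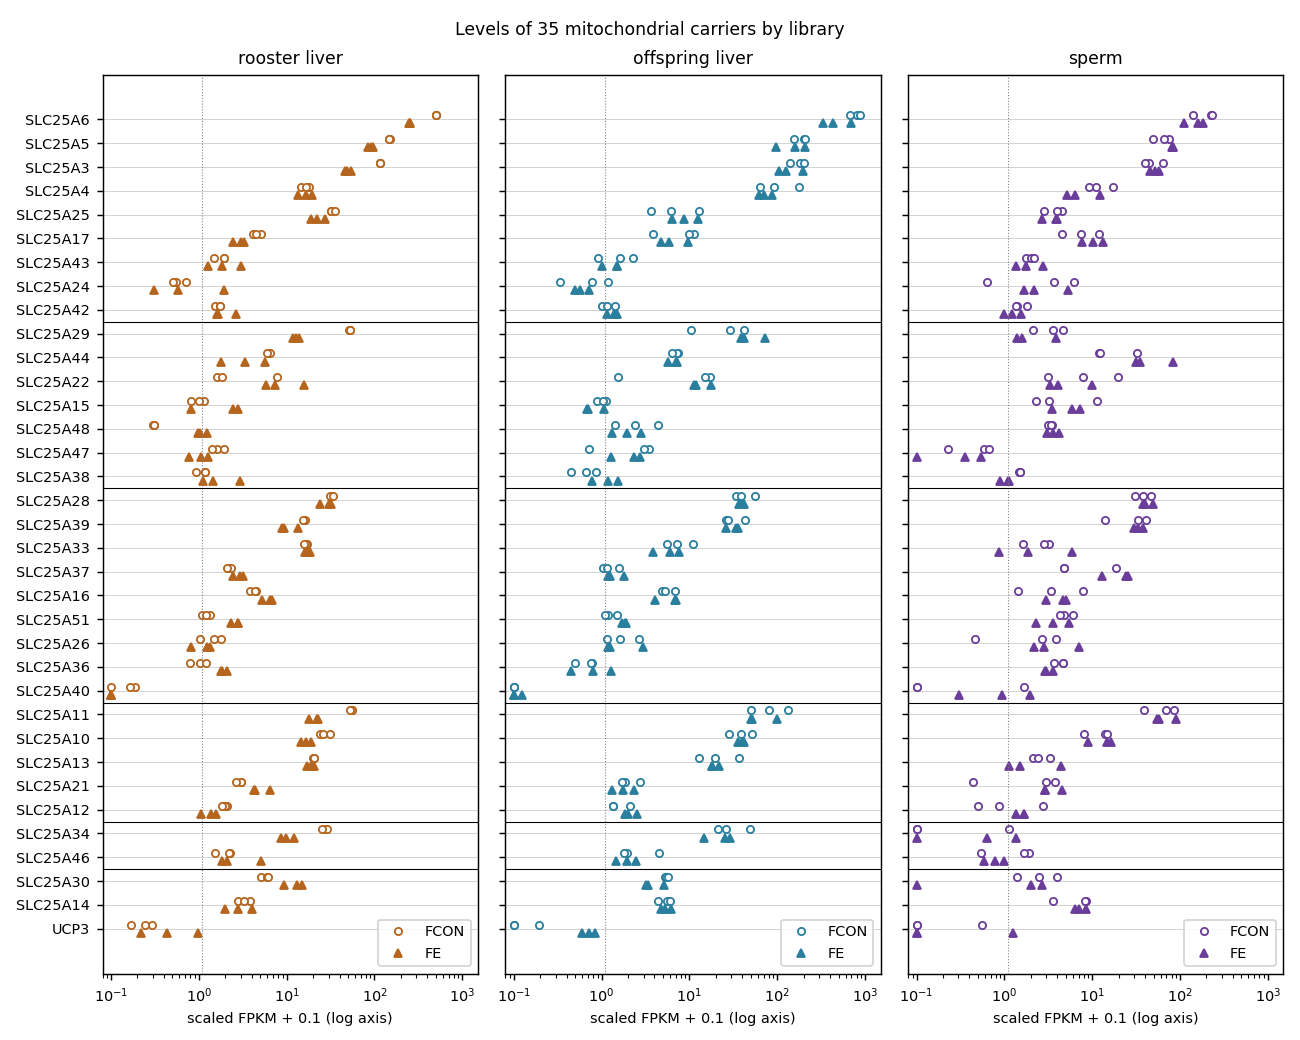
Scaled FPKM plus 0.1 (log axis) of 35 of the carriers in every library, by tissue, with open circles for FCON and filled triangles for FE; horizontal lines part the 6 role groups, which run from adenine nucleotides at the top to the uncoupling group at the bottom, and the dotted line marks 1 scaled FPKM. SLC25A6 stands highest in all 3 tissues, the points of SLC25A5 and SLC25A11 overlap in sperm, and most libraries of UCP3 and SLC25A40 lie left of the dotted line.

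The ADP/ATP carriers made up 58.4 ± 1.91% of the family's summed FPKM in rooster liver, 62.7 ± 5.49% in offspring liver and 44.0 ± 5.18% in sperm (SD, n = 6, both diets). By diet label the share spanned 60.1 to 60.3% with FCON and 56.4 to 57.2% with FE in rooster liver. The spans were 64.2 to 70.4% and 56.0 to 62.8% in offspring liver, and 46.1 to 48.5% and 34.8 to 44.7% in sperm. In each tissue FE lay below FCON without overlap, a difference that was not tested. Levels of single genes did not overlap between diets for 58.6% of all tested genes in rooster liver, 13.9% in offspring liver and 10.2% in sperm. In rooster liver, diet cannot be told apart from the W difference and RNA make-up. Shares of carriers are taken within a library, so scaling between libraries does not touch them. SLC25A4, the carrier that dominates heart and skeletal muscle in mammals, held 3.51 ± 1.29% of the 3 ADP/ATP carriers in rooster liver, 10.3 ± 2.81% in offspring liver and 3.87 ± 1.26% in sperm. Every offspring pool (5.87 to 14.1%) lay above every adult liver library (2.16 to 5.41%). Summed muscle markers lay at 1.36 to 4.81 scaled FPKM in the offspring FCON pools and at 0.911 to 1.07 in rooster FCON liver. With FE the order was the reverse, at 1.23 to 4.19 in the pools and 5.43 to 10.4 in the adult libraries. MB and MYH1B stood at 0 in both adult groups and in the offspring FE pools. The part of muscle cells in the SLC25A4 share was not tested. SLC25A5 held 29.2 ± 8.83% in sperm and 23.8 ± 1.97% in rooster liver, ranges that overlap.

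**Figure D2:**
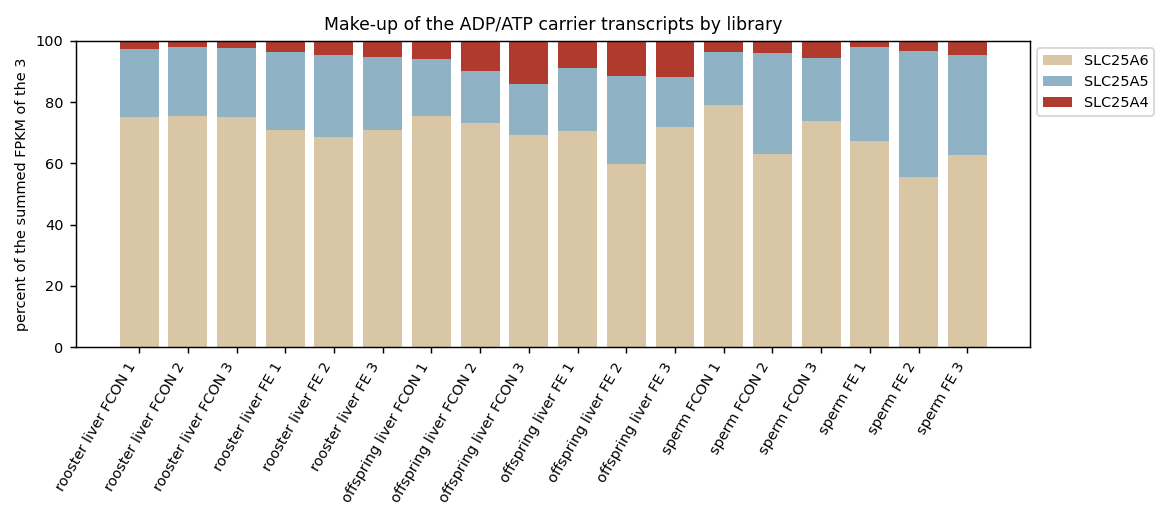
Share of SLC25A6, SLC25A5 and SLC25A4 in their summed FPKM (percent, stacked to 100) in each of the 18 libraries. The SLC25A4 segment spans 5.87 to 14.1% in the offspring pools and 2.16 to 5.41% in the adult liver libraries.

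Shares within pairs of carriers of related substrates set sperm beside liver. SLC25A13 (citrin) made up 92.7 ± 1.47% of the summed aspartate-glutamate carriers SLC25A12 and SLC25A13 in rooster liver and 91.6 ± 2.84% in offspring liver, but 62.3 ± 19.9% in sperm. Of the iron carriers SLC25A28 (mitoferrin-2) and SLC25A37 (mitoferrin-1), SLC25A37 held 7.52 ± 1.96%, 3.07 ± 1.07% and 25.9 ± 13.2%. Of the ATP-Mg/phosphate carriers SLC25A24 and SLC25A25, SLC25A25 held 97.6 ± 2.01%, 92.7 ± 4.36% and 56.8 ± 22.7%. The pyrimidine nucleotide carriers SLC25A33 and SLC25A36 showed the same kind of split, with SLC25A33 at 92.6 ± 2.50%, 90.8 ± 3.22% and 38.7 ± 17.3%. The sperm ranges did not overlap those of rooster liver for the SLC25A33 share (18 to 67.4% against 90.3 to 96.1%), the SLC25A25 share (30.7 to 89.1% against 93.7 to 99.0%) or the SLC25A13 share (39.6 to 83.3% against 91.2 to 94.7%), but did for the SLC25A37 share. Those of the offspring pools overlapped sperm for the SLC25A25 share (84.7 to 96.8%). These shares are a description over libraries of both diets and were not tested.

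By position, 2 members lie on the Z chromosome (SLC25A46 and SLC25A51) and SLC25A11 on unplaced sequence. SLC25A29 (chromosome 5, 48730232 to 48739091, minus strand) and SLC25A47 (48741173 to 48758961, plus strand) are neighbours that point away from each other. SLC25A5 (16561047 to 16563041) and SLC25A43 (16563983 to 16581687) are neighbours on the minus strand of chromosome 4. Coordinates are those of the deposited table, and its genome build is not given in the sources used here. 9 members overlap a gene on the other strand (SLC25A6, SLC25A12, SLC25A16, SLC25A22, SLC25A25, SLC25A26, SLC25A40, SLC25A48 and SLC25A51), and SLC25A22 and SLC25A43 overlap a microRNA gene on their own strand. No strand-specific counting is stated, so their values may hold reads of the partner and are uncertain. SLC25A4, SLC25A5 and SLC25A6 are close paralogs, and how reads that fit more than 1 of them were counted is not stated.

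In rooster liver, 13 of the 32 tested carriers differed between the diets: 8 were lower and 5 higher in the libraries labelled FE. The fall was led by SLC25A29, which carries lysine and arginine in human cells, and took in the most abundant members, the ADP/ATP carriers SLC25A6 and SLC25A5 and the phosphate carrier SLC25A3. The rise was led by SLC25A51, the NAD carrier, and SLC25A30, of the uncoupling group. Genes entered the test with an FPKM of 1 or more in 3 or more of the compared libraries, and were called when edgeR's quasi-likelihood test on the counts gave a Benjamini-Hochberg adjusted p below 0.05 over all genes tested. Of all 10291 tested genes 41.5% were called (20.4% higher and 21.1% lower), which is close to the 40.6% of the tested carriers. The median log2 difference was -0.08 over the tested carriers and -0.03 over all tested genes. In whole tissue, fewer cells of a type and less RNA per cell cannot be told apart.

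SLC25A29 read 53.0, 51.3 and 52.5 scaled FPKM in FCON and 13.5, 12.8 and 11.6 in FE. The groups were far apart, with a log2 difference of -1.96 (SE 0.09, adjusted p = 2.29e-05). SLC25A34 (gene 107054933, chromosome 21, 4227547 to 4229667), a carrier of unknown substrate, read 27.0, 28.4 and 25.1 in FCON and 9.81, 12.1 and 8.47 in FE and fell by 1.31 on the log2 scale (SE 0.16, adjusted p = 0.000884). Neither gene's groups overlapped. The neighbour of SLC25A29, SLC25A47, known as a liver carrier in mouse and human, read 1.49, 1.31 and 1.84 in FCON and 0.67, 0.952 and 1.16 in FE, without overlap but short of the threshold (log2 difference -0.64, SE 0.25, adjusted p = 0.0848).

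Among the dicarboxylate carriers, the oxoglutarate-malate carrier SLC25A11 read 55.1, 55.8 and 52.6 in FCON and 22.3, 17.998 and 22.8 in FE (log2 difference -1.28, SE 0.12, adjusted p = 0.000329). The dicarboxylate carrier SLC25A10 read 23.7, 30.7 and 26.1 in FCON and 14.5, 16.7 and 18.8 in FE (log2 difference -0.60, SE 0.15, adjusted p = 0.0173). Both had every FE library below every FCON library. SLC25A21, the oxodicarboxylate carrier, went the other way, from 2.95, 2.92 and 2.55 to 6.41, 4.24 and 4.12 (log2 difference 0.90, SE 0.21, adjusted p = 0.0145). SLC25A13, which hands aspartate to the cytosol, read 20.4, 19.8 and 20.5 in FCON and 20.3, 18.8 and 17.0 in FE, groups that overlap (log2 difference -0.02, SE 0.09, adjusted p = 0.866).

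For the carriers of energy metabolism, SLC25A3 read 114, 115 and 115 in FCON and 46.6, 48.5 and 54.6 in FE (log2 difference -1.11, SE 0.08, adjusted p = 0.000129). SLC25A6 read 504, 504 and 497 in FCON and 255, 244 and 254 in FE (log2 difference -0.91, SE 0.06, adjusted p = 9.83e-05), and SLC25A5 read 148, 150.2 and 147 in FCON and 92.1, 95.8 and 84.7 in FE (log2 difference -0.62, SE 0.08, adjusted p = 0.00103). All 3 were lower in every FE library than in every FCON library. The third ADP/ATP carrier, SLC25A4, overlapped between groups, at 18.1, 14.5 and 16.7 in FCON and 13.2, 16.4 and 19.4 in FE (log2 difference 0.09, SE 0.17, adjusted p = 0.705). SLC25A25, an ATP-Mg/phosphate carrier, fell from 31.7, 31.9 and 35.3 to 22.0, 27.3 and 18.8 (log2 difference -0.45, SE 0.14, adjusted p = 0.0377). Its call held in 1 of the 6 fits that leave out a library, namely that without rooster FE 2.

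The carriers that rose were less abundant. SLC25A51 (gene 100859749, chromosome Z, 81824055 to 81830581) read 1.25, 0.996 and 1.09 in FCON and 2.22, 2.71 and 2.67 in FE (log2 difference 1.28, SE 0.18, adjusted p = 0.00201). It lies on the Z chromosome, whose 412 tested genes had a median log2 difference of 0.51 in this comparison against -0.05 for the genes of other chromosomes. SLC25A46, the other Z-linked member and an outer membrane protein of mitochondrial fission, read 1.44, 2.14 and 2.09 in FCON and 1.73, 5.05 and 1.98 in FE, groups that overlap (log2 difference 0.72, SE 0.45, adjusted p = 0.237). SLC25A30 read 4.99, 5.86 and 6.06 in FCON and 9.14, 14.7 and 13.0 in FE (log2 difference 1.22, SE 0.20, adjusted p = 0.00342). The pyrimidine nucleotide carrier SLC25A36 rose from 0.924, 0.684 and 1.12 to 1.71, 1.97 and 1.72 (log2 difference 1.08, SE 0.23, adjusted p = 0.0102), and SLC25A16, linked to coenzyme A transport in yeast, from 3.75, 4.35 and 4.21 to 6.73, 5.08 and 6.39 (log2 difference 0.66, SE 0.17, adjusted p = 0.0208). The calls of SLC25A21 and SLC25A16 were lost without any one of the FCON libraries, and that of SLC25A36 without FCON 1 or FCON 2.

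The other 19 tested carriers did not pass. In all, 20 of the 32 had groups that did not overlap, against 58.6% of all tested genes. By role, of 5 tested dicarboxylate carriers 2 fell and 1 rose, of 8 in the adenine nucleotide and phosphate group 4 fell. Of 9 tested carriers of the cofactor and nucleotide group 3 rose, and of 6 for amino acids 1 fell. Of 2 in the uncoupling group 1 rose, and of SLC25A34 and SLC25A46 the first fell. Of all tested genes 20.4% were called higher and 21.1% lower. In the same libraries 7 of 8 hepatocyte markers fell, 4 of 6 macrophage markers rose and 4 of 5 lymphocyte markers rose. Summed macrophage markers lay at 317 to 324 scaled FPKM in FCON and 560 to 571 in FE, and summed lymphocyte markers at 31.7 to 35.9 and 129 to 133. Their part in the carriers' differences was not tested. On the deposited FPKM without further scaling, limma with a pseudocount of 1 called 20 carriers lower and 0 higher, and the median of all genes lay at -0.76. There SLC25A21 and SLC25A16 stood at -0.08 and -0.27.

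**Figure D3:**
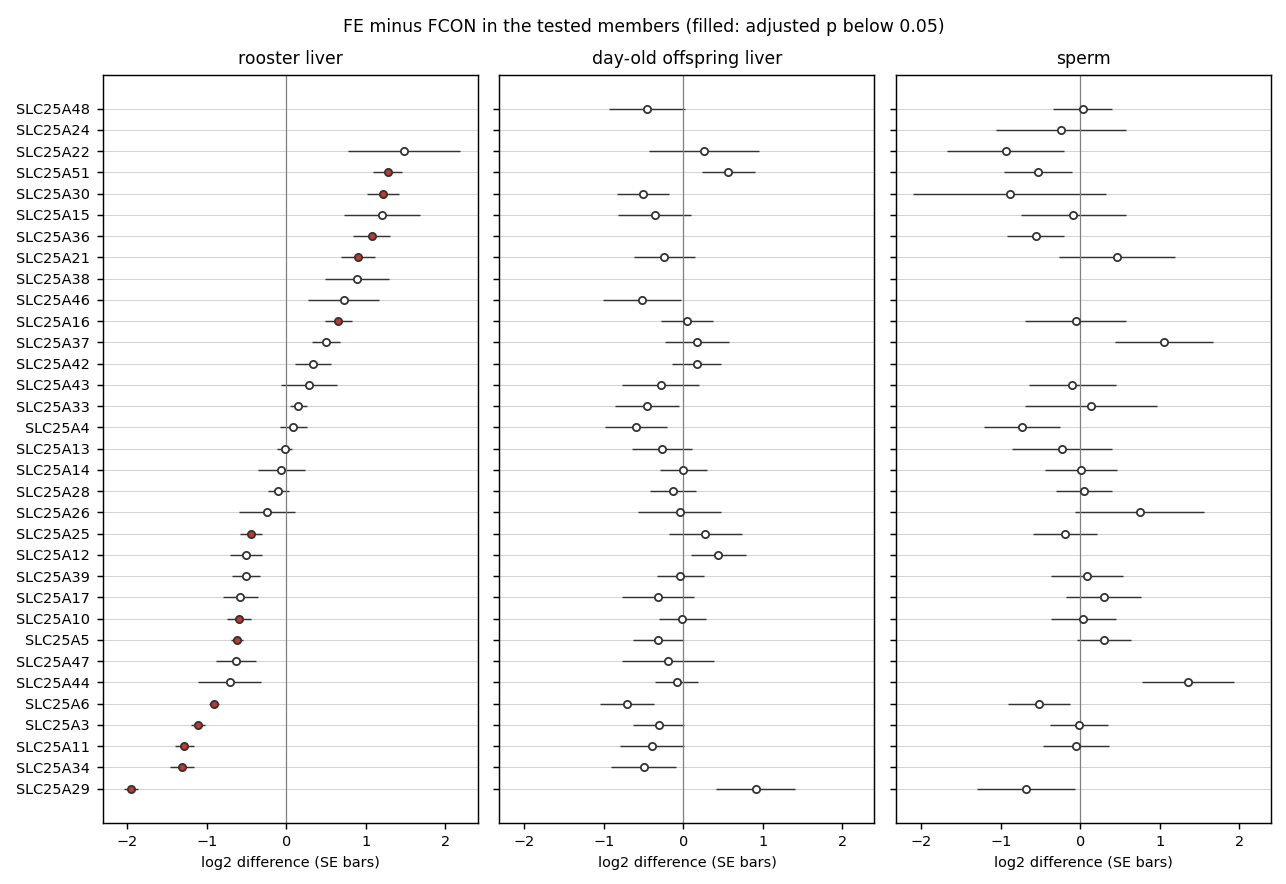
Log2 difference FE minus FCON of the tested carriers, 1 left out (points, with bars of 1 standard error) in rooster liver, offspring liver and sperm; filled points passed an adjusted p of 0.05. The rooster liver panel has 8 filled points below and 5 above 0, and the other panels have none.

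In offspring liver no carrier passed the test between fathers' diets. 31 carriers were tested, 0% of the 9700 tested genes were called by edgeR, and no carrier had an unadjusted p below 0.05. DESeq2 called 17 of all tested genes higher and 21 lower, but 0 carriers, with 1 carrier at an unadjusted p below 0.05. Carriers with the smallest p in each direction are given as values. SLC25A6 read 809.7, 673 and 868 scaled FPKM in FCON and 699, 328 and 428 in FE, with overlap (log2 difference -0.71, SE 0.34, adjusted p = 0.701). SLC25A29 read 10.4, 42.2 and 29.0 in FCON and 38.5, 42.0 and 71.9 in FE, also with overlap (log2 difference 0.91, SE 0.50, adjusted p = 0.733). SLC25A51 read 1.10, 1.40 and 0.995 in FCON and 1.81, 1.63 and 1.75 in FE, without overlap (log2 difference 0.56, SE 0.33, adjusted p = 0.742).

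SLC25A30 read 5.18, 5.31 and 5.58 in FCON and 3.27, 5.07 and 3.07 in FE, without overlap (log2 difference -0.50, SE 0.33, adjusted p = 0.759). SLC25A4 read 63.0, 92.0 and 176 in FCON and 87.4, 62.4 and 70.6 in FE, with overlap (log2 difference -0.59, SE 0.39, adjusted p = 0.759). Groups did not overlap for 3 of the 31, SLC25A30 and SLC25A51 among them, against 13.9% of all tested genes. The median standard error over the carriers was 0.38 log2 here and 0.19 in rooster liver. Pools also differed widely within a group: the glutamate carrier SLC25A22 read 1.43, 17.1 and 14.8 in the 3 FCON pools.

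In sperm 27 carriers were tested and none was called between diets, as for all 8811 genes tested (0% called by edgeR). 1 carrier had an unadjusted p below 0.05, and DESeq2 also called 0 with 1 below 0.05. SLC25A44, a branched-chain amino acid carrier in mouse and human, read 11.8, 32.0 and 12.2 in FCON and 35.3, 83.5 and 31.7 in FE (log2 difference 1.35, SE 0.58, adjusted p = 0.902). The iron carrier SLC25A37 read 4.66, 18.8 and 4.66 in FCON and 24.3, 25.4 and 12.8 in FE (log2 difference 1.06, SE 0.62, adjusted p = 0.902). In both genes FCON 2 stood apart from the other FCON libraries, and the groups overlapped. Sperm libraries of the same number may be paired, by a correlation seen in these same data, but the labels do not pair them. For both genes, named for their small p, FE was higher in 3 of 3 such pairs, which is a description and not a test. With the replicate number as a block edgeR still called neither (log2 differences of 1.36 for SLC25A44 and 1.34 for SLC25A37, adjusted p = 0.54 for each).

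The 7 summed sperm markers lay at 29.4, 237 and 40.0 scaled FPKM in FCON 1, 2 and 3, with FCON 2 again apart, and at 160, 179 and 113 in FE 1, 2 and 3. Their part in these values was not tested. Without FCON 2, SLC25A37 passed in the fit of the other 5 libraries (adjusted p = 0.0472), as did 179 genes on the higher and 3 on the lower side of all tested. SLC25A26, which imports S-adenosylmethionine, the methyl donor that depends on the folate cycle, read 0.363, 3.73 and 2.59 in FCON and 2.71, 7.06 and 2.08 in FE (log2 difference 0.75, SE 0.81, adjusted p = 0.912), and its difference turned to -0.015 without FE 2, the library with 50.2% nuclear rRNA. SLC25A36 (log2 difference -0.56, SE 0.36, adjusted p = 0.902) and SLC25A5 (log2 difference 0.30, SE 0.34, adjusted p = 0.917) were the carriers without overlap between groups, 2 of 27 against 10.2% of all tested genes. SLC25A4 (log2 difference -0.73, SE 0.48, adjusted p = 0.902) and SLC25A6 (log2 difference -0.52, SE 0.39, adjusted p = 0.902) completed the 3 smallest p on the lower side.

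The diet difference itself was compared between rooster and offspring liver in a fit of all 12 liver libraries. Of 33 tested carriers 2 were higher and 1 was lower, together 9.09%, against 18.7% of all tested genes (8.44% higher and 10.2% lower). For SLC25A29 the difference was -1.96 in rooster and 0.91 in offspring liver, and the difference of the 2 was -2.88 (SE 0.58, adjusted p = 0.00595). SLC25A30 stood at 1.22 and -0.50, with a difference of 1.71 (SE 0.36, adjusted p = 0.00757). SLC25A48, linked to choline import in human and mouse cells, read 0.197, 0.206 and 0.209 in rooster FCON and 0.881, 1.15 and 0.936 in rooster FE, and 1.32, 2.30 and 4.27 in the offspring FCON and 2.75, 1.86 and 1.21 in the offspring FE pools, and its diet effects differed by 2.81 (SE 0.60, adjusted p = 0.00845). In the rooster diet comparison it was below the minimum for testing, and it entered this fit because of the offspring pools. The pools also kept it in every fit that leaves out a library. Those fits do not check its rooster values against that minimum. All 3 calls held in each of the 12 fits that leave out a library. Those of SLC25A30 and SLC25A48 were lost with limma on FPKM, which called 17 carriers lower and 0 higher while the median of all genes stood at -1.06. SLC25A30 also lost its call in 1 fit of all 18 libraries (log2 difference 1.63, adjusted p = 0.386). The count of carriers lower, 1, became 2 without offspring FCON 1, offspring FCON 2 or offspring FE 2 and 3 without offspring FCON 3. In the same test 5 of 8 hepatocyte markers were lower and 3 of 6 macrophage markers higher, and their part was not tested.

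Day-old liver was then set against adult liver within each diet label. The 2 comparisons share no libraries with each other, but each uses libraries that also enter the diet comparisons. A value such as that of SLC25A29 in adult FE liver therefore enters several contrasts. Age is joined to pooling, feed, RNA make-up and W counts. Nuclear rRNA took 24.5 ± 7.01% of the offspring FCON counts against 6.43 ± 3.02% in adults (SD, n = 3). With FE it took 13.0 ± 7.89% against 45.9 ± 13.9%. W-linked genes took 1015 to 1117 CPM in the adult FCON libraries. With FE they took 1299 CPM in offspring pool 2 and at most 2.07 in adults. With FCON libraries 6 carriers were higher and 2 lower in the chicks of 33 tested, against 29.4% of all tested genes called (15.6% higher and 13.8% lower). With FE libraries 9 were higher and 5 lower of 33, against 27.4% (14.7% higher and 12.8% lower). The median log2 difference of the carriers was 0.35 and 0.46, and that of all tested genes -0.00 and 0.04. SLC25A4, SLC25A39, SLC25A3 and SLC25A6 were called higher, and SLC25A25 and SLC25A33 lower, in both. With limma on FPKM plus 1 the split was 2 higher and 9 lower with FCON and 18 higher and 0 lower with FE, while the median of all genes stood at -0.41 and 0.72.

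SLC25A4 (gene 422546, chromosome 4, 39355760 to 39358582) read 18.1, 14.5 and 16.7 scaled FPKM in rooster FCON and 63.0, 92.0 and 176 in offspring FCON. The log2 difference was 2.83 (SE 0.39, adjusted p = 0.00429). With FE it read 13.2, 16.4 and 19.4 in adults and 87.4, 62.4 and 70.6 in chicks (log2 difference 2.13, SE 0.25, adjusted p = 0.000958). Every pool lay above every adult library in both, and both calls held under every alternative tried. SLC25A39, which imports glutathione, read 15.6, 16.1 and 15.4 in adults and 26.2, 27.7 and 42.7 in chicks with FCON (log2 difference 1.12, SE 0.23, adjusted p = 0.0133) and 13.2, 9.20 and 8.68 in adults and 35.6, 33.8 and 25.7 in chicks with FE (log2 difference 1.58, SE 0.26, adjusted p = 0.00355). It too did not overlap between ages.

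SLC25A48 differed most with FCON, from 0.197, 0.206 and 0.209 in the adult libraries to 1.32, 2.30 and 4.27 in the pools (log2 difference 3.77, SE 0.48, adjusted p = 0.00336). Its call held in the 3 fits that leave out an adult library. Where a pool was left out, SLC25A48 was below the minimum for testing. The call was therefore not checked against single pools. SLC25A3 rose by 0.69 with FCON (adjusted p = 0.0336) and by 1.48 with FE (adjusted p = 0.00609), and SLC25A6 by 0.73 (adjusted p = 0.0188) and 0.92 (adjusted p = 0.049). SLC25A14, of the uncoupling group, rose with FCON by 0.78 (adjusted p = 0.0431). With FCON, the calls of SLC25A39, SLC25A3, SLC25A6, SLC25A14, SLC25A25 and SLC25A33 were each lost without any one of the 3 adult libraries (SLC25A14 also without pools 1 or 2 and SLC25A33 without pools 2 or 3), and with FE that of SLC25A6 was lost without any one adult library or pool 1.

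With FE libraries further carriers rose in the chicks. SLC25A29 rose by 1.97 (adjusted p = 0.00228), SLC25A11 by 1.64 (adjusted p = 0.00669) and SLC25A10 by 1.19 (adjusted p = 0.00513). The first of these had read 13.5, 12.8 and 11.6 in the adult FE libraries, the lowest mean of the 4 liver groups, although offspring FCON pool 1 read 10.4. SLC25A17, a peroxisomal carrier of coenzyme A and related cofactors, rose by 1.19 (adjusted p = 0.044) and SLC25A34 by 1.14 (adjusted p = 0.0255). These last 2 calls were lost without some single libraries, SLC25A17 without any adult library or pools 1 or 2, and SLC25A34 without adult libraries 1 or 3 or pools 1 or 3.

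SLC25A25 led the falls with FCON, from 31.7, 31.9 and 35.3 in adults to 3.51, 6.00 and 12.7 in chicks (log2 difference -2.07, SE 0.45, adjusted p = 0.0168), and fell with FE to 8.68, 12.3 and 6.26 (log2 difference -1.36, SE 0.29, adjusted p = 0.0104). SLC25A33, a pyrimidine nucleotide carrier, read 16.8, 16.7 and 15.6 in adults and 10.8, 5.53 and 7.09 in chicks with FCON (log2 difference -0.98, SE 0.27, adjusted p = 0.0356) and 15.9, 18.3 and 16.9 in adults and 3.70, 5.89 and 7.49 in chicks with FE (log2 difference -1.62, SE 0.29, adjusted p = 0.00572). Neither carrier overlapped between ages. With FE alone SLC25A30 fell by 1.73 on the log2 scale (adjusted p = 0.00502), SLC25A21 by 1.56 (adjusted p = 0.0114) and SLC25A37 by 1.11 (adjusted p = 0.0347), the last losing its call without any adult library or pools 1 or 3. Whether these ages differ by more in one diet than in the other is the difference tested above, which 3 carriers passed. No overlap between ages was found for 17 of 33 tested carriers with FCON (51.5%, against 53.5% of all tested genes). With FE it was 23 of 33 (69.7%, against 47.2%).

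In these age comparisons the marker lists moved too, beside 29.4% of all tested genes called with FCON and 27.4% with FE. All 6 macrophage and all 5 lymphocyte markers were lower in chicks with FE, and 2 of 6 and 3 of 5 with FCON. Of 8 hepatocyte markers 4 were higher with FE, and 1 was higher and 2 were lower with FCON. Summed erythroid markers ran from 165 to 2062 scaled FPKM in the FCON pools. The part of these cells in the carriers' differences was not tested.

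**Figure D4:**
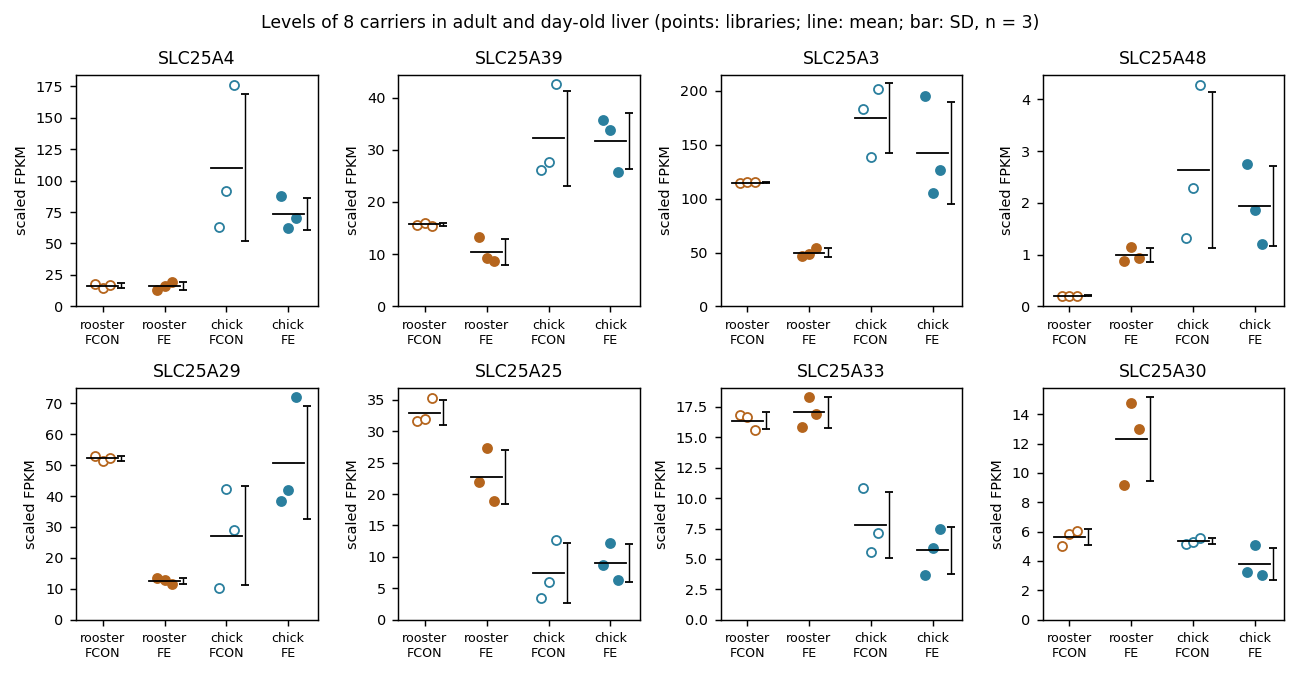
Scaled FPKM of 8 carriers, picked after their values were seen, in the 4 liver groups (points are libraries, lines means, bars SD, n = 3; open circles FCON, filled FE, each axis from 0). SLC25A4 stands between 62.4 and 176 in the offspring pools and between 13.2 and 19.4 in the adult libraries, and SLC25A29 has its lowest mean in the adult FE libraries.

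Sperm and liver of the roosters were set side by side within each diet label. With FCON, 6 carriers were higher and 10 lower in sperm of 33 tested (all tested genes: 49.6% called, 24.1% higher and 25.5% lower). With FE, 9 were higher and 7 lower of 29 (52.8%, 29.9% higher and 22.9% lower). The median log2 difference of the carriers was -0.01 and 0.07, beside -0.08 and 0.10 for all tested genes. SLC25A34, SLC25A29, SLC25A25, SLC25A13, SLC25A33 and SLC25A6 were called lower, and SLC25A48, SLC25A37, SLC25A44 and SLC25A15 higher, in both. With limma on FPKM plus 1 it was 2 higher and 15 lower with FCON and 2 higher and 6 lower with FE, with all-gene medians of -0.87 and -0.24. The FCON comparison sets sperm against liver libraries with W counts. The most abundant gene of each library, which may differ between libraries, took 23.5 to 45.3% of the counts in sperm. In rooster liver the most abundant gene took 6.84 to 7.23% with FCON and 19.4 to 34.1% with FE.

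Among the carriers lower in sperm, SLC25A29 read 4.57, 1.99 and 3.43 scaled FPKM in sperm FCON and 1.47, 1.29 and 3.80 in sperm FE, against 51.3 or more in the liver of rooster FCON (log2 difference -3.96, SE 0.35, adjusted p = 0.000564) and 11.6 or more in that of rooster FE (log2 difference -2.48, SE 0.48, adjusted p = 0.0033). SLC25A25 read 4.38, 3.86 and 2.71 in FCON and 3.73, 3.92 and 2.61 in FE (log2 difference -3.15, SE 0.27, adjusted p = 0.000496 with FCON, and -2.72, SE 0.27, adjusted p = 0.000174 with FE). SLC25A13 (citrin) read 2.03, 2.32 and 3.17 in FCON and 1.40, 1.02 and 4.27 in FE (log2 difference -2.99, SE 0.24, adjusted p = 0.000449 with FCON, and -3.00, SE 0.55, adjusted p = 0.00264 with FE). These 3 stood below every liver library of their own diet. SLC25A33 read 1.54, 3.09 and 2.75 in FCON and 0.77, 5.83 and 1.76 in FE and was lower as well (log2 difference -2.69, SE 0.32, adjusted p = 0.00127 with FCON, and -2.60, SE 0.69, adjusted p = 0.0146 with FE). SLC25A34 held 0, 0 and 33 counts in sperm FCON and 0, 8 and 44 in sperm FE, against 2108 to 2371 and 173 to 326 counts in liver, with edgeR adjusted p = 0.0128 and 0.0144. With FCON it entered the test only through its liver libraries, and its call was not checked against leaving out any of them.

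Several abundant energy carriers were lower too. SLC25A6 read 228, 142 and 231 in sperm FCON and 180.3, 109.6 and 159.7 in sperm FE (log2 difference -1.31, SE 0.26, adjusted p = 0.0077 with FCON, and -0.73, SE 0.25, adjusted p = 0.0379 with FE), the second call being lost without liver FE 3 or sperm FE 2. SLC25A5 (log2 difference -1.22, SE 0.23, adjusted p = 0.00576), SLC25A3 (log2 difference -1.21, SE 0.25, adjusted p = 0.00814), SLC25A10 (log2 difference -1.13, SE 0.28, adjusted p = 0.0175) and SLC25A47 (log2 difference -1.91, SE 0.52, adjusted p = 0.0235) were lower with FCON. The FCON call of SLC25A47 rests on a carrier that entered the test only through its liver libraries, and was not checked against leaving out any of them. With FE, SLC25A5 (log2 difference -0.13, SE 0.20, adjusted p = 0.616), SLC25A3 (log2 difference 0.07, SE 0.22, adjusted p = 0.814) and SLC25A10 (log2 difference -0.31, SE 0.30, adjusted p = 0.401) did not pass, and SLC25A47 was below the minimum for testing. SLC25A30 was lower with FE (log2 difference -3.00, SE 0.99, adjusted p = 0.0352), a call lost without liver FE 2 or 3 or sperm FE 3.

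Among the carriers higher in sperm, SLC25A48 read 3.35, 3.06 and 3.31 in sperm FCON and 4.07, 3.49 and 2.95 in sperm FE (log2 difference 4.01, SE 0.27, adjusted p = 0.000321 with FCON, and 1.85, SE 0.36, adjusted p = 0.00373 with FE). No sperm library of the 6 overlapped its liver group. With FCON, SLC25A48 entered the test only through its sperm libraries, as liver read 0.197 to 0.209. Without any one of those sperm libraries it was below the minimum for testing, so that call was not checked against them. SLC25A44 reached 11.8, 32.0 and 12.2 in FCON and 35.3, 83.5 and 31.7 in FE (log2 difference 1.63, SE 0.45, adjusted p = 0.0242 with FCON, and 3.85, SE 0.58, adjusted p = 0.00105 with FE), and SLC25A37, the mitoferrin that serves haem synthesis in red cells, 4.66, 18.8 and 4.66 in FCON and 24.3, 25.4 and 12.8 in FE (log2 difference 2.20, SE 0.62, adjusted p = 0.0272 with FCON, and 2.92, SE 0.33, adjusted p = 0.000287 with FE). In liver SLC25A44 had read 6.17, 6.37 and 5.88 in FCON and 5.64, 3.28 and 1.68 in FE, and SLC25A37 2.03, 2.24 and 2.01 in FCON and 3.08, 2.86 and 2.38 in FE, so every sperm library lay above every liver library of its diet for both. Summed over the 5 of 8 listed erythroid markers present in the data, sperm held 2.77 to 10.2 scaled FPKM, and rooster liver held 443 to 1244. The part of red cells in the SLC25A37 values was not tested. The ornithine carrier SLC25A15 read 2.20, 11.3 and 3.13 in FCON and 3.39, 7.25 and 5.86 in FE (log2 difference 2.66, SE 0.68, adjusted p = 0.0187 with FCON, and 1.53, SE 0.56, adjusted p = 0.0495 with FE). Its FE call lies at the threshold and was lost with DESeq2 size factors, without a filter on low values and with robust estimation in edgeR.

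With FCON alone SLC25A36 (4.53, 3.60 and 4.57, log2 difference 2.23, SE 0.28, adjusted p = 0.00142) and SLC25A51 (4.61, 6.01 and 4.20, log2 difference 2.17, SE 0.26, adjusted p = 0.00126) were called higher. With FE alone these were SLC25A39 (log2 difference 1.71, SE 0.26, adjusted p = 0.00104), SLC25A11 (log2 difference 1.68, SE 0.27, adjusted p = 0.00135), SLC25A17 (log2 difference 1.87, SE 0.37, adjusted p = 0.00397), SLC25A26 (log2 difference 1.91, SE 0.59, adjusted p = 0.0276) and SLC25A14 (log2 difference 1.33, SE 0.38, adjusted p = 0.0193). A difference between the diets in these tissue contrasts was not tested. With FCON, the calls of SLC25A15, SLC25A37 and SLC25A44 were lost without any one of the liver libraries (3 carriers higher in place of 6), and 10 were higher without sperm FCON 2. With FE, those of SLC25A15 and SLC25A26 were lost without any one liver library, without sperm FE 2 and, for SLC25A15, also without sperm FE 3. SLC25A14 lost its call without liver FE 1 or 2 or sperm FE 1. Groups did not overlap for 18 of 33 tested carriers with FCON (54.5%) and 21 of 29 with FE (72.4%), against 66.8% of all tested genes in each.

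**Figure D5:**
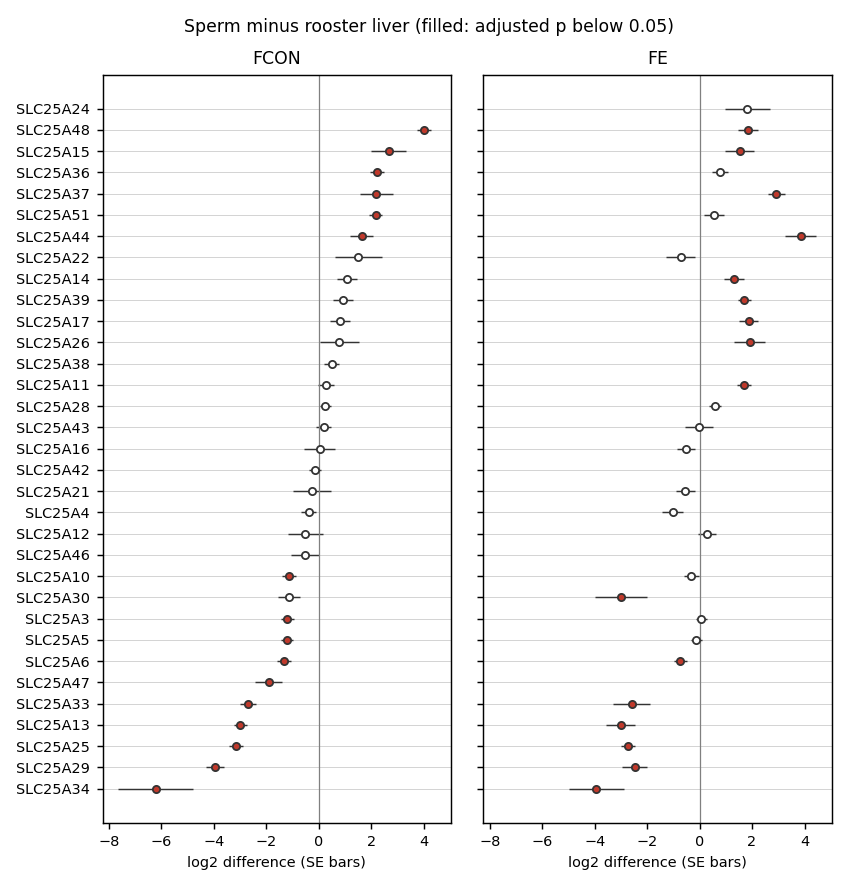
Log2 difference sperm minus rooster liver of the tested carriers, 1 left out (points, with bars of 1 standard error) within FCON and within FE; filled points passed an adjusted p of 0.05. SLC25A34 lies lowest in both panels, and SLC25A48 highest with FCON and SLC25A44 with FE.

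Genes around the family were counted from listed groups. The counts for rooster liver stand beside 20.4% of all tested genes called higher and 21.1% called lower with FE. In rooster liver, of 9 mitochondrial pyruvate carrier, sideroflexin and carrier-like import receptor genes 5 were lower and 1 higher with FE, led by SFXN5 (-2.29) and the pyruvate carrier subunit MPC1 (-1.69). SFXN1, the serine carrier of folate metabolism, was the one that rose (0.69). Of 6 porin and calcium uniporter genes 1 was higher, the outer membrane channel VDAC1 (1.36). Of 9 genes that import carriers into the inner membrane 2 were higher, TIMM13 (1.82) and TIMM10 (0.76), and 1 was lower, TIMM8A (-0.87).

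The 4 tested shuttle enzymes split, MDH1 (0.56) and GOT2 (0.95) rising and MDH2 (-0.45) and GOT1 (-0.44) falling. Of 4 regulators of mitochondrial genes 1 fell, the coactivator PPARGC1B (-1.55). Of 9 haem and iron-sulphur genes 3 fell, led by ALAS1, the first enzyme of haem synthesis (-3.01), and NFS1 rose (0.62). In chicks against adults the carrier import genes were higher for 4 of 9 with FCON and 3 of 9 with FE, with none lower. Of all tested genes 15.6% were higher and 13.8% lower with FCON, and 14.7% higher and 12.8% lower with FE. In sperm against liver with FCON the pyruvate carrier group was lower for 6 of 9 and higher for 2, and with FE lower for 2 and higher for 2 of 8. Of all tested genes 25.5% were lower and 24.1% higher with FCON, and 22.9% lower and 29.9% higher with FE. Of the carriers left out of the family, SLC25A1 and SLC25A20 (-0.60) also fell in rooster liver. In offspring liver and in sperm none of these genes passed between diets, where edgeR called 0% of all tested genes.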

How the data were processed

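Liver of breeder roosters, liver of 1-day-old offspring (pools of RNA from 4 chicks) and rooster sperm were sequenced, 3 libraries in each of 6 groups, and samples were grouped by their labels. The deposited table gives whole-number counts and FPKM per gene for 18 libraries. The count values were made by the authors from reads handled with cutadapt, HISAT2 and StringTie, per the submitters' processing notes, and the way reads were assigned is not given in the sources used here. The FPKM values in the deposited table, per its column names, are per kilobase and per mapped fragments, and carry no further scaling stated by the authors. The genome build is not given in the sources used here. A RefSeq gene table of GRCg7b held 34 of the 36 member IDs and matched 19402 of 23741 gene IDs. Each deposited chromosome sequence was named by the commonest chromosome of its genes in that gene table. The coordinates of the gene table were not used.

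Counts were tested with edgeR 4.0.16 (R 4.3.3), TMM scaling and the quasi-likelihood test without robust estimation, in genes with FPKM of 1 or more in 3 or more libraries of the groups compared, with Benjamini-Hochberg adjustment over all of them and a threshold of 0.05. The difference of diet effects is an interaction term over 12 liver libraries. Non-robust estimation was chosen after both kinds had been seen, and the robust kind was run as an added alternative. Scaled FPKM is the deposited FPKM divided by the TMM factor over 18 libraries. Log2 differences come from each comparison's own scaling and stray from scaled FPKM by medians of at most 0.09 log2.

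The members and lists were chosen with earlier results of these data known. Named were up to 10 carriers called in each direction by size of difference, or the 3 of smallest p in each direction where none was called, and in levels the highest and those past 1 in a single tissue. 1 member is counted throughout but not reported singly here or drawn. Any other named carrier was chosen after its values were seen. Alternatives were DESeq2 size factors, no filter, DESeq2 1.42.0, limma 3.58.1 on log2(FPKM + 1) and log2(FPKM + 0.1), a replicate block, leaving out each library, leaving out the offspring pools numbered 2, and, added after the data were seen, 1 fit of all 18 libraries and robust estimation. The script was tested on simulated counts, whose changes were made larger after a first run recovered few in sperm. Libraries of the same number correlated over 0.1 in every pair in the sperm diet comparison (0.186 to 0.289 for deviations from group means). They may be paired there, but the labels give no pairing and the main sperm diet test has no block. In the other comparisons libraries of the same number did not correlate over 0.1 in every pair. Rows of nuclear rRNA genes stayed in the library totals. Coordinates are those of the deposited table. Figures were drawn with matplotlib 3.10.9, and tables handled with pandas 2.3.3 in Python 3.11.15.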

Additional observations from a re-analysis of the deposited data

Results flagged for a closer look

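The diet difference of 3 carriers differed between rooster and offspring liver by the interaction test. SLC25A29 had a log2 difference of -2.88 between the effects (SE 0.58, edgeR quasi-likelihood adjusted p = 0.00595), lower with FE in 3 of 3 rooster libraries and overlapping in the pools. SLC25A48 had 2.81 (SE 0.60, adjusted p = 0.00845) and SLC25A30 had 1.71 (SE 0.36, adjusted p = 0.00757). In the rooster diet comparison SLC25A48 was below the minimum for testing, and it entered the interaction test because of the offspring pools. All 3 were tested with 33 carriers among 11002 genes, of which 18.7% passed, and the W counts of the libraries labelled rooster FCON cannot be told apart from diet in them.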

How the results depend on the processing

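Of 70 named carrier calls 48 held in every fit that leaves out a library and still tests the carrier, and 29 held under every alternative that tests it. SLC25A48 by age with FCON, and SLC25A48, SLC25A34 and SLC25A47 in sperm against liver with FCON, were tested in only 3 of the fits that leave out a library. Without a library of the group where they are high they were below the minimum for testing. With DESeq2 8 carriers were higher in rooster liver in place of 5. With limma on log2(FPKM + 1) or log2(FPKM + 0.1), 0 carriers were higher and 20 or 18 lower in rooster liver, 0 higher and 17 lower in the difference of diet effects, 2 higher and 9 or 8 lower in the age comparison with FCON, and 18 higher and 0 lower in that with FE. In sperm against liver 2 were higher with FCON and 2 with FE. These fits also moved the share of higher calls over all genes, from 49.2% to 4.88% in rooster liver, 45.2% to 3.49% in the difference, 53.0% to 15.6% and 53.5% to 90.0% in the age comparisons and 48.6% to 16.4% and 56.6% to 43.2% in sperm against liver (pseudocount 1). In rooster liver SLC25A21 changed direction to -0.078 and -0.095 and SLC25A16 to -0.27 and -0.32 under limma with 1 and 0.1 as pseudocount. The cause was not tested.

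With 1 fit of all 18 libraries, 2 carriers were higher and 3 lower in rooster liver, 1 higher in the difference, where SLC25A30 lost its call, 2 higher and 1 lower by age with FCON, and 2 lower by age with FE. Without the offspring pools numbered 2, 2 were lower in the difference and 1 lower by age with FCON.

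The replicate block gave 3 higher and 1 lower by age with FCON, and it left 0 calls in the sperm diet comparison, where the numbers may pair the samples. In rooster liver it gave 5 higher and 7 lower.

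Leaving out 1 library at a time gave 2 to 7 carriers higher and 7 to 9 lower in rooster liver, 0 to 1 higher in sperm, 2 to 3 higher and 1 to 3 lower in the difference, 2 to 8 higher and 0 to 3 lower by age with FCON, and 6 to 10 higher and 4 to 5 lower by age with FE. In sperm against liver it gave 3 to 10 higher and 8 to 11 lower with FCON and 6 to 10 higher and 5 to 8 lower with FE. In the sperm diet comparison SLC25A26 ranged from -0.015 without sperm FE 2 to 1.31 without sperm FCON 2, and no fit called it. DESeq2 size factors, no filter and robust estimation kept every count within 1.5 times. UCP3 and SLC25A40 were left out of every comparison by the filter on low values.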
